A study of Mus musculus with 8 samples.

Results

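Genes that restrain Wnt signalling, 8 in number, were followed in Lgr5-traced cells of the mouse hair follicle after skin injury, with and without regulatory T cells (Tregs). The 8 genes were a named list, found by symbol among the 46078 genes of the deposited count table, and all 8 were present and passed the filter on low counts. Of these, 5 code for secreted or membrane proteins (Apcdd1, Wif1, Dkk3, Sfrp1 and Sostdc1). The other 3 (Axin2, Nkd1 and Nkd2) code for proteins that act inside the cell, so that the list is wider than secreted and membrane inhibitors alone. The list was chosen by the genes' known roles, with the measured CPM difference between the 2 conditions in these libraries in view. Values of that difference are therefore given for the members as a description. Counts of members past a test's threshold in it are set beside the share of all genes, and nothing is read from them.

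Wnt proteins bind Frizzled receptors and the co-receptors Lrp5 and Lrp6 at the cell surface, which stabilises beta-catenin and lets it act with TCF and LEF factors on target genes. In the hair follicle this pathway drives the passage from rest to growth and the making of the hair shaft, and resting stem cells of the bulge are known for expressing Wnt antagonists. Secreted inhibitors catch Wnts or block the receptors outside the cell, while Axin2 and the Naked cuticle proteins are made in response to Wnt signalling and dampen it from within.

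The cells came from mice labelled Lg5-egfp-ires-creert2/R26-tdTomato, all with skin injury, and were collected by sorting. The Lgr5 gene drives a drug-inducible Cre in this strain, and the tdTomato mark stays in descendants of labelled cells, so that a library can mix stem cells and progeny. Treg-sufficient and Treg-depleted mice gave 4 libraries each. Experiment 1 supplied replicates 1 and 2 of each condition and experiment 2 supplied replicates 3 and 4. The sources used here do not give how Tregs were removed, the kind of injury, the times of labelling and sampling, the age of the mice, or whether replicates were separate animals. P-values thus measure the spread between these libraries, which may be technical.

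Totals over genes ran from 22330729 to 29975347 counts per library. Treg-sufficient replicate 2 held Xist, a transcript of female cells, at 2670 CPM (counts scaled to a common library total) and Treg-depleted replicate 2 at 76.8 CPM, against 0.96 to 2.17 CPM in the other 6 libraries. Treg-depleted replicate 2 and Treg-sufficient replicate 3 held counts for 18605 and 19593 genes, against 21720 to 23062 in the others. All 8 bulge stem cell markers were detected in every library. Their sum was 5337 to 10520 CPM, most of it Krt15 (mean 5730 CPM), with the other 7 averaging 34.8 (Tcf7l1) to 659 CPM (Itga6). Of the 8 markers, 5 were higher and 3 lower in Treg-depleted libraries. Lgr5 averaged 421 CPM in Treg-sufficient and 444 CPM in Treg-depleted libraries. Cd34 averaged 171 ± 105 CPM and 348 ± 225 CPM in the same order (SD, n = 4 libraries each). Its log2 fold change of 1.06 (SE 0.33) was the farthest from 0 of the 8. In bulk RNA, fewer cells of a type and less RNA per cell cannot be told apart.

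Levels were compared between genes as RPKM, CPM divided by the gene's merged exon length in kilobases. Sfrp1, a secreted protein that resembles the Wnt-binding part of Frizzled, was the most abundant member at 210 ± 58.4 RPKM (SD, n = 8 libraries). Sostdc1, a secreted antagonist of both BMP and Wnt signalling, followed at 94.6 ± 32.7 RPKM. Dkk3, a divergent member of the Dickkopf family whose action on Wnt signalling is debated, stood at 83.6 ± 38.8 RPKM. The last 2 overlapped widely from library to library, so their order was not resolved.

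The other 5 members were at most moderate in level. Wif1, which binds Wnts outside the cell, averaged 10.7 ± 7.84 RPKM. Axin2, a scaffold of the complex that destroys beta-catenin and a classical Wnt target, averaged 6.29 ± 1.64 RPKM, and Apcdd1, a membrane glycoprotein that binds Wnts and their co-receptor, 4.41 ± 1.63 RPKM. Nkd1 and Nkd2, which bind Dishevelled, averaged 3.14 ± 1.01 and 0.649 ± 0.513 RPKM. Neighbours from Wif1 to Nkd1 overlapped in their library values. Nkd2 lay below the lowest Nkd1 library (1.82 RPKM) in every library. Nkd2 also varied most, 32.2-fold between its highest and lowest library, whereas Axin2 varied 2.10-fold and Sfrp1 2.25-fold. For Apcdd1 the merged exons span 12884 bases, so that its RPKM would be higher over a shorter transcript.

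**Figure D1:**
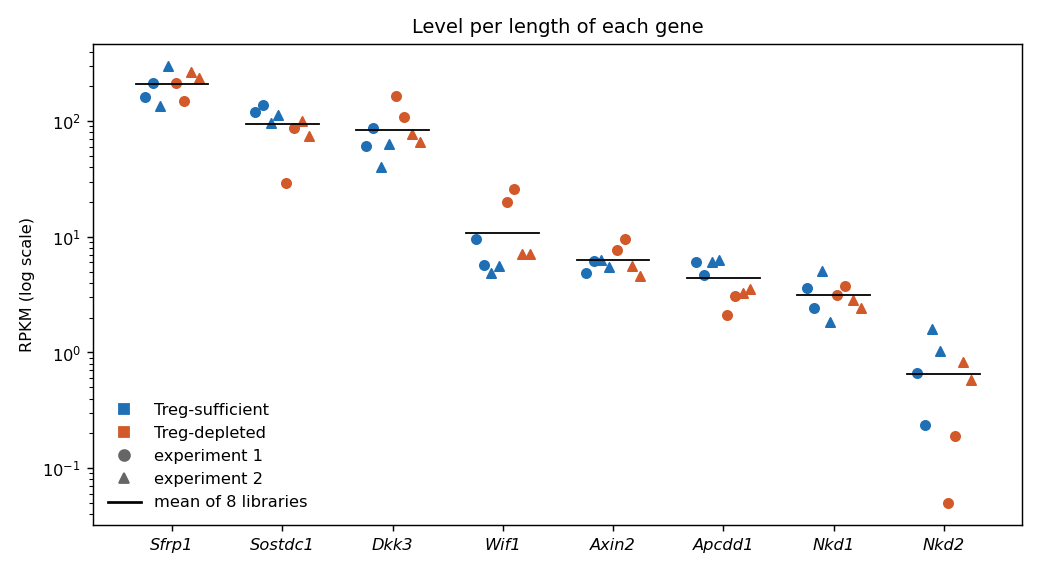
Level of each gene in RPKM on a log axis, 1 point per library, coloured by condition and shaped by experiment, with the mean of 8 libraries as a line. Sfrp1, Sostdc1 and Dkk3 stand above the rest, and Nkd2 is lowest and most spread out.

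Apcdd1 (ENSMUSG00000071847, GRCm38 chromosome 18, 62922231 to 62961179, plus strand) separated the conditions completely. Its level was 78.5, 60.8, 78.7 and 81.6 CPM in Treg-sufficient replicates 1 to 4, and 27.2, 39.5, 42.1 and 45.7 CPM in Treg-depleted replicates 1 to 4. Every Treg-depleted library lay below every Treg-sufficient one. The log2 fold change was -0.97 (SE 0.14), with -1.06 (SE 0.21) in experiment 1 and -0.87 (SE 0.21) in experiment 2. With all libraries the difference was thus of similar size in each. In experiment 1 leaving out Treg-depleted replicate 2 gave -1.39, and leaving out Treg-depleted replicate 1 gave -0.84. Apcdd1 was the only member whose conditions did not overlap over all 8 libraries. Such separation, in either direction, was found for 2.32% of the 16495 genes tested, and nothing is read from it here, since the gene was chosen with this contrast known. Over both experiments the log2 fold change was -1.10 without the 2 libraries that held Xist and -1.13 without the 2 with the fewest genes. In experiment 1 the same settings gave -1.58 and -1.37.

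Sostdc1 (ENSMUSG00000036169, chromosome 12, 36314139 to 36318452, plus strand) stood at 213, 245, 172 and 200 CPM in Treg-sufficient and 52.4, 155, 178 and 133 CPM in Treg-depleted replicates 1 to 4. Treg-depleted replicate 1 was far below all others, and Treg-depleted replicate 3 lay inside the Treg-sufficient range. The log2 fold change was -0.70 (SE 0.32) over both experiments, -1.14 (SE 0.43) in experiment 1, where the conditions did not overlap, and -0.26 (SE 0.42) in experiment 2, where they did. The value in experiment 1 rests on unlike libraries: leaving out Treg-depleted replicate 2 gave -2.16, and leaving out Treg-depleted replicate 1 gave -0.58. Over both experiments it was -0.39 without Treg-depleted replicate 1, -0.84 without the libraries that held Xist and -1.24 without those with the fewest genes.

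Wif1 (ENSMUSG00000020218, chromosome 10, 121033960 to 121100650, plus strand) went the other way. It stood at 23.4, 13.9, 11.8 and 13.6 CPM in Treg-sufficient and 48.4, 63.0, 17.3 and 17.2 CPM in Treg-depleted replicates 1 to 4. Both high values belong to Treg-depleted libraries of experiment 1, while the Treg-depleted libraries of experiment 2 lay below Treg-sufficient replicate 1. Within each experiment the conditions did not overlap. The log2 fold change was 1.02 (SE 0.27) over both experiments, 1.58 (SE 0.26) in experiment 1 and 0.44 (SE 0.26) in experiment 2. Over both experiments it was 0.63 without the libraries that held Xist and 0.86 without those with the fewest genes. In experiment 1 leaving out Treg-sufficient replicate 1 gave 2, and leaving out Treg-sufficient replicate 2 gave 1.22. Leaving out the libraries that held Xist gave 1.01 there.

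Dkk3 (ENSMUSG00000030772, chromosome 7, 112116017 to 112159057, minus strand) was the other secreted member with higher values. Treg-sufficient replicates 1 to 4 stood at 207, 292, 135 and 214 CPM and Treg-depleted replicates at 558, 363, 258 and 220 CPM. Treg-depleted replicate 1 was the highest library, and in experiment 2 the lower Treg-depleted library exceeded the higher Treg-sufficient one only narrowly. Dkk3 had a log2 fold change of 0.67 (SE 0.21), with 0.89 (SE 0.29) in experiment 1 and 0.45 (SE 0.29) in experiment 2. In experiment 1 leaving out Treg-depleted replicate 1 gave 0.52, and leaving out Treg-depleted replicate 2 gave 1.13. Over both experiments the value ran from 0.48 to 0.86 with single libraries left out. In experiment 2 leaving out Treg-sufficient replicate 3 gave 0.16, and leaving out Treg-sufficient replicate 4 gave 0.82.

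Sfrp1 (ENSMUSG00000031548, chromosome 8, 23411502 to 23449632, plus strand) showed no such split. Its level was 161, 215, 134 and 301 RPKM in Treg-sufficient and 214, 150, 264 and 237 RPKM in Treg-depleted replicates 1 to 4. The conditions overlapped in each experiment, and the Treg-sufficient libraries of experiment 2 held both the lowest and the highest value. Over both experiments the log2 fold change was 0.08 (SE 0.25), and it ran from -0.13 to 0.32 with single libraries left out. The most abundant inhibitor therefore had no direction that these libraries resolve.

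**Figure D2:**
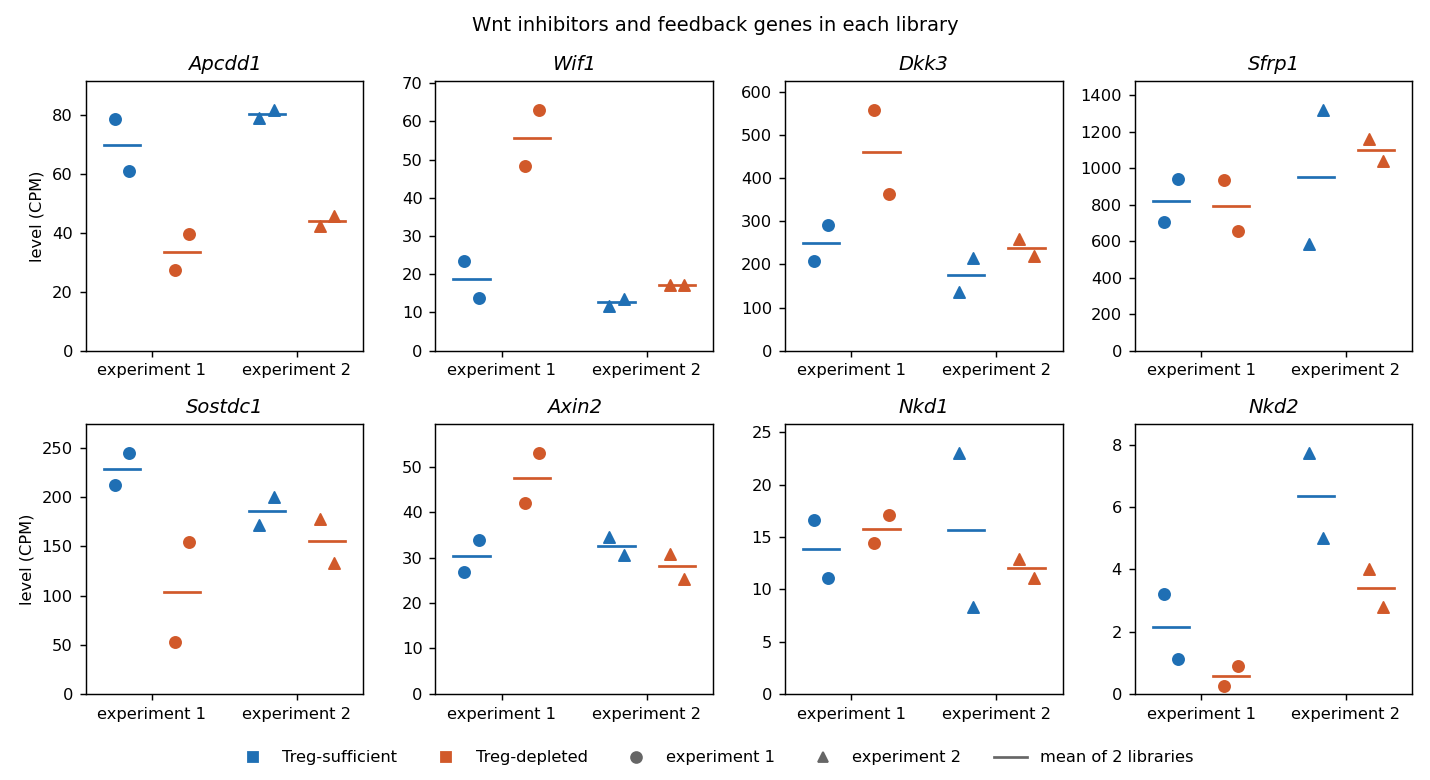
Level of each gene in CPM (linear axis from 0) in each library, by experiment and condition, with the mean of 2 libraries as a line. Apcdd1 is lower in Treg-depleted libraries of both experiments, the high values of Wif1 and Axin2 are the Treg-depleted libraries of experiment 1, and Sfrp1 and Nkd1 overlap.

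Among the feedback genes, Nkd2 (ENSMUSG00000021567, chromosome 13, 73818534 to 73847631, minus strand) had few counts, 7 to 203 per library. Its level was 3.20, 1.13, 7.74 and 5.0 CPM in Treg-sufficient and 0.241, 0.908, 4.03 and 2.80 CPM in Treg-depleted replicates 1 to 4. The conditions did not overlap within either experiment, but the experiments lay so far apart that they overlapped over all 8 libraries. Nkd2 had a log2 fold change of -1.37 (SE 0.49), with -1.95 (SE 0.72) in experiment 1 and -0.90 (SE 0.64) in experiment 2. In experiment 1 leaving out Treg-depleted replicate 2 gave -3.18 and leaving out Treg-sufficient replicate 1 gave -1.01. In experiment 2 leaving out Treg-sufficient replicate 3 gave -0.55.

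Axin2 (ENSMUSG00000000142, chromosome 11, 108920349 to 108950783, plus strand) stood at 26.8, 33.9, 34.6 and 30.5 CPM in Treg-sufficient and 42.0, 53.0, 30.8 and 25.3 CPM in Treg-depleted replicates 1 to 4. The Treg-depleted libraries of experiment 1 were the 2 highest of all 8, and those of experiment 2 fell within or below the Treg-sufficient range. Axin2 had a log2 fold change of 0.64 (SE 0.20) in experiment 1, -0.22 (SE 0.20) in experiment 2 and 0.22 (SE 0.20) over both. In experiment 1 leaving out Treg-depleted replicate 2 gave 0.43, and leaving out Treg-sufficient replicate 2 gave 0.79. Over both experiments the value ran from 0.05 to 0.36 with single libraries left out. An antisense gene at this locus, Gm11670, had at most 18 counts. The strand setting of the counting is not given, and the part of opposite-strand reads in Axin2 was not tested.

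Nkd1 (ENSMUSG00000031661, chromosome 8, 88521354 to 88594884, plus strand) stood at 16.6, 11.1, 23.0 and 8.28 CPM in Treg-sufficient and 14.4, 17.1, 12.9 and 11.1 CPM in Treg-depleted replicates 1 to 4. Its conditions overlapped in both experiments (log2 fold change -0.10, SE 0.31). In experiment 2 the value turned from -0.38 (SE 0.44) to 0.53 without Treg-sufficient replicate 3. The paralogues Nkd1 and Nkd2 both had negative values over both experiments, and their difference from each other was not tested.

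**Figure D3:**
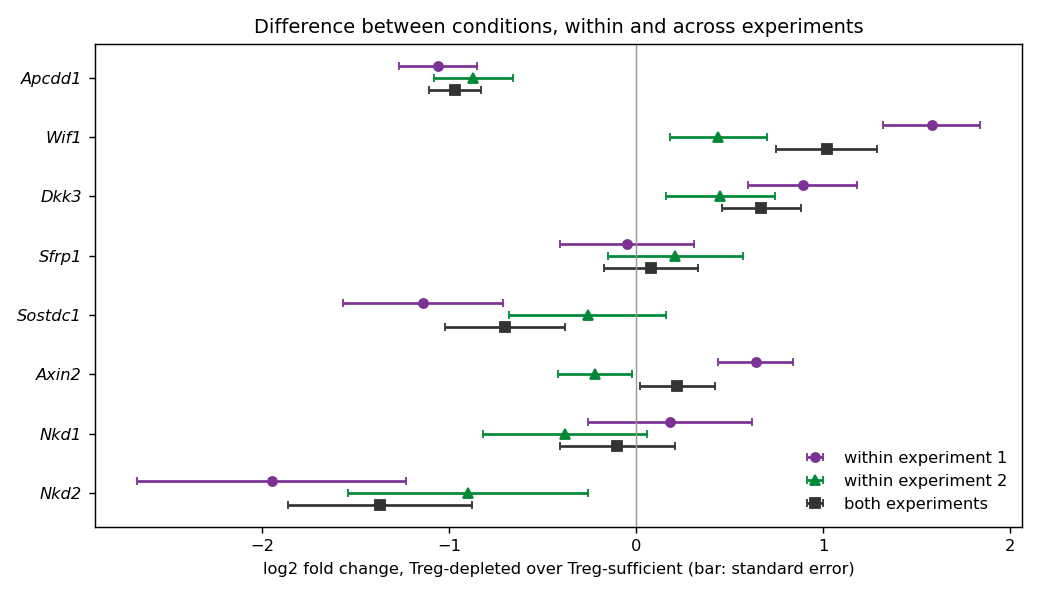
Log2 fold change of each gene, Treg-depleted over Treg-sufficient, with its standard error, within experiment 1, within experiment 2 and over both. Apcdd1 is near -1 in all 3, Wif1, Sostdc1 and Nkd2 lie farther from 0 in experiment 1 than in experiment 2, and Axin2 lies on opposite sides of 0.

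Over both experiments 4 members had a positive and 4 a negative log2 fold change, with a median of -0.01 against 0.002 over all 16495 genes. In experiment 1 the conditions did not overlap for 6 of 8 members (all but Sfrp1 and Nkd1), against 37.6% of all genes, and in experiment 2 for 4 of 8, against 32.6%. Within both experiments and in the same direction the conditions did not overlap for Apcdd1, Wif1, Dkk3 and Nkd2, 4 of 8 members, against 7.02% of all genes. By edgeR's quasi-likelihood test 0 of 8 members passed an adjusted p of 0.05 between conditions, where 0.0% of all genes passed, and the same held within experiment 2 (0.0% of genes, with 1 member, Apcdd1, and 1.75% of genes at an unadjusted p under 0.05). At an unadjusted p under 0.05 were 4 members and 7.12% of genes, while DESeq2 called 2 members, Apcdd1 and Wif1, among 82 genes. Within experiment 1 edgeR again called 0 of 8 members, against 0.606% of genes, with 6 members and 11.1% of genes at an unadjusted p under 0.05. DESeq2 called the same 2 members there, among 721 genes. In experiment 1 edgeR called 2 members (Apcdd1 and Sostdc1) among 443 genes without Treg-depleted replicate 2. The same 2 were called among 531 genes without both libraries with the fewest genes, and 3 (these and Nkd2) among 487 genes without both libraries that held Xist, against 0 members and 100 genes with all libraries. Each of these settings leaves 1 Treg-depleted library in experiment 1, and the last also 1 Treg-sufficient library, so that a lone library is assumed to vary like those of the other groups. All these counts come from the contrast known when the list was made.

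The interaction is the effect in experiment 2 minus that in experiment 1. Both effects were in view when the list was made, so that the members' interactions too are a description. By edgeR's interaction term 0 of 8 members passed (0.0% of all genes), and DESeq2 called 0 members as well, among 182 genes. Wif1 (log2 interaction -1.14, SE 0.37) and Axin2 (-0.86, SE 0.28) were the 2 members at an unadjusted p under 0.05, against 5.6% of genes. For both, the Treg-depleted libraries were relatively higher in experiment 1. The interaction of Apcdd1 was 0.20 (SE 0.29). That of Sostdc1 was 0.89 (SE 0.60) and that of Nkd2 1.05 (SE 0.96).

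The experiments were also compared directly, at equal weight of the conditions. By edgeR 0 of 8 members passed, against 1.62% of all genes, and 3 members were at an unadjusted p under 0.05, against 22.0% of genes. Nkd2 averaged 4.89 ± 2.10 CPM in experiment 2 and 1.37 ± 1.28 CPM in experiment 1 (SD, n = 4 in each). Its log2 fold change was 2.03 (SE 0.50, adjusted p by edgeR = 0.0673). Wif1 averaged 15.0 ± 2.72 against 37.2 ± 22.6 CPM (-1.13, SE 0.27, edgeR adjusted p = 0.0643), and Dkk3 207 ± 51.6 against 355 ± 150 CPM (-0.73, SE 0.21, edgeR adjusted p = 0.0896). DESeq2 called these 3 members, among 2133 genes. Without Treg-sufficient replicate 1 edgeR called Nkd2 (2.56, adjusted p = 0.0387). None of the 8 had non-overlapping experiments, against 13.4% of all genes.

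The members shared extremes from library to library. Treg-depleted replicate 1 had the lowest level of Apcdd1, Sostdc1 and Nkd2 and the highest of Dkk3. Treg-sufficient replicate 3, a library with few genes detected, had the highest level of Nkd1 and Nkd2 and the lowest of Wif1, Dkk3 and Sfrp1. Nkd1 and Sfrp1 stood opposite each other in experiment 2, with Nkd1 highest and Sfrp1 lowest in Treg-sufficient replicate 3 and the reverse in Treg-sufficient replicate 4. The part of library quality in these shared extremes was not tested.

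The genes most like a member over the 8 libraries were ranked by Pearson correlation of log2 CPM among 10046 genes with a mean of at least 10 CPM, as a description. For Apcdd1 these were Rap2b (r = 0.956), Tes (0.946), Caskin2 (0.944), Rbm14 (0.943) and Zfand3 (0.939). Their log2 fold changes between conditions were between -0.72 and -0.23, smaller than that of Apcdd1. For Wif1 they included Cebpd (r = 0.985), a C/EBP family transcription factor, Pxdc1 (0.977), Irak1 (0.965) and the prostaglandin synthase gene Ptges (0.963). Cebpd had a log2 fold change of 3.49 in experiment 1 and 0.42 in experiment 2, more uneven than Wif1. For Axin2 they were Tbccd1 and Cblc (0.956 each), Fam8a1 (0.953), Glrx2 (0.948) and Sdcbp (0.947), of which none is in the Wnt lists used here.

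Wif1 and Axin2, both highest in the Treg-depleted libraries of experiment 1, are shown with the stretch before their start sites. The sequences cover 250 to 51 bases before the RefSeq start, from the RefSeq promoter table (GRCm38.p6, 5′ to 3′, plus strand), at chr10:121033754-121033953 and chr11:108920099-108920298. For Wif1 the RefSeq start lies downstream of the gene start given above, so that the window ends closer to the latter. Capitals mark GC boxes (GGGCGG on either strand), which 24.6% of 32851 promoters hold in this window.
Wif1: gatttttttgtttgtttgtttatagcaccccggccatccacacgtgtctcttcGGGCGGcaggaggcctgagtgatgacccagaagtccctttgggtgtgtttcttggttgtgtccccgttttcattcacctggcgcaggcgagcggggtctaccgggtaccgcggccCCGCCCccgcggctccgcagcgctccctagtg
Axin2: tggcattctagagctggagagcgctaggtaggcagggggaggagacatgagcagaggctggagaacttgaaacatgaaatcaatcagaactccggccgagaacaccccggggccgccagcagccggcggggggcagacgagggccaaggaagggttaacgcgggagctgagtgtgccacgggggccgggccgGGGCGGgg
Wif1 held 2 GC boxes and Axin2 held 1. Wif1 held 16 CG pairs and Axin2 held 14, against a median of 4 over all promoters. At least as many were found in 15.9% of promoters for Wif1 and in 19.8% for Axin2, so that such richness is common.

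Promoters of 4 members (Wif1, Axin2, Nkd1 and Nkd2) were taken, and 12 motifs were searched in the same window on both strands. Members were not looked up on chromosome 18, so that a promoter of Apcdd1 was not searched. The TCF and LEF motif CTTTGAT, found in 2.64% of promoters, was in none of the 4, nor was its shorter form CTTTGNA (13.3%). Also in none were the AP-1 motif TGANTCA (5.57%), the cyclic AMP element TGACGTCA (0.828%), the C/EBP motif TTGCNNAA (8.11%) with its shorter form TTNCNNAA (32.3%), the EGR motif GCGTGGG (3.27%) and the NF-kappaB motif (0.304%). Wif1 held a match to the TATA box motif (TATAAA, 9.14%) on the opposite strand, near the far end of the window. It also held an E-box (CACGTG, 4.34%), and Nkd2 held a CCAAT box (CCAAT, 28.4%). The window stops 51 bases before the start, so that a TATA box nearer to it was not searched for. The shorter forms overlap the longer ones. These matches describe letters in a short window only.

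The rest of the pathway was read from lists of 94 other genes. Among 27 further inhibitors 19 were tested and 0 passed between conditions in either direction, with 11 positive and 8 negative log2 fold changes and a median of 0.05. The 8 that were not tested (Dkk1, Dkk2, Dkk4, Sfrp4, Frzb, Sost, Cer1 and Draxin) had at most 15 counts in any library. Csnk1a1, the casein kinase that primes beta-catenin for destruction, and Axin1 were the most abundant, at 75.9 and 23.8 RPKM, with log2 fold changes of 0.04 (SE 0.10) and -0.03 (SE 0.09). The smallest p belonged to Trabd2b, a membrane protease that cleaves Wnts, at 116 ± 21.2 CPM with Tregs and 173 ± 32.0 CPM without (SD, n = 4) (0.56, SE 0.16). Next came the co-repressor Tle3 at 180 ± 40.8 CPM with Tregs and 143 ± 62.0 CPM without (-0.40, SE 0.18). For the genes of the next lists the mean without Tregs stands first.

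Of 25 ligands, secretion factors and R-spondins 17 were tested. Between conditions 0 passed, 3 values were positive and 14 negative, and the median was -0.29, the farthest from 0 of these lists. Wnt5a stood at 25.7 ± 9.21 against 38.6 ± 9.05 CPM (-0.62, SE 0.21) and Wnt4 at 74.2 ± 15.5 against 93.2 ± 10.3 CPM (-0.35, SE 0.12). Wls, which carries Wnts to the cell surface, was the most abundant (32.8 RPKM) and had a value of -0.09 (SE 0.09). Porcn, the enzyme that adds the lipid to Wnts, followed at 30.5 RPKM. It was higher in the Treg-depleted libraries of experiment 1 (1.48, SE 0.24, edgeR adjusted p = 0.0477), just under the threshold. In that comparison of 2 libraries per condition 0.606% of all genes passed. It was the only gene of the 4 Wnt lists to pass in a comparison of conditions, and it had -0.13 in experiment 2.

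All 22 receptor and Dishevelled genes were tested and 0 passed between conditions (10 positive, 12 negative, median -0.01). The receptor Fzd7 (86.9 RPKM, 0.00, SE 0.12) and the R-spondin receptor Lgr4 (77.8 RPKM, -0.23, SE 0.16) were the most abundant. Lgr6, a related receptor, stood at 358 ± 50.9 against 266 ± 47.4 CPM (0.43, SE 0.13) and Fzd10 at 14.0 ± 5.17 against 26.3 ± 10.1 CPM (-0.88, SE 0.31), the 2 smallest p of the list. Between experiments Lgr4 (0.90, edgeR adjusted p = 0.0446) and Ror1 (1.23, edgeR adjusted p = 0.0439) were higher in experiment 2.

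Of 20 effectors and targets 17 were tested and 0 passed between conditions (7 positive, 10 negative, median -0.02). Ctnnb1, which codes for beta-catenin, stood at 325 RPKM with a log2 fold change of -0.05 (SE 0.11), and Cd44 at 112 RPKM with 0.04 (SE 0.13). Sox4 stood at 44.0 ± 19.4 against 64.4 ± 11.3 CPM (-0.61, SE 0.20) and Ephb3 at 113 ± 36.8 against 134 ± 23.8 CPM (-0.30, SE 0.13). Between experiments Tcf7l1, a repressor of Wnt targets in follicle stem cells (0.77, edgeR adjusted p = 0.0439), and the cyclin gene Ccnd1 (0.85, edgeR adjusted p = 0.0485) were higher in experiment 2. Over the whole table the number of genes called between experiments fell from 268 to 0 without Treg-sufficient replicate 2, Treg-depleted replicate 2 or Treg-depleted replicate 4. It was 2, 3, 6 and 39 without Treg-depleted replicates 1 and 3 and Treg-sufficient replicates 4 and 3, and 679 without Treg-sufficient replicate 1.

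**Figure D4:**
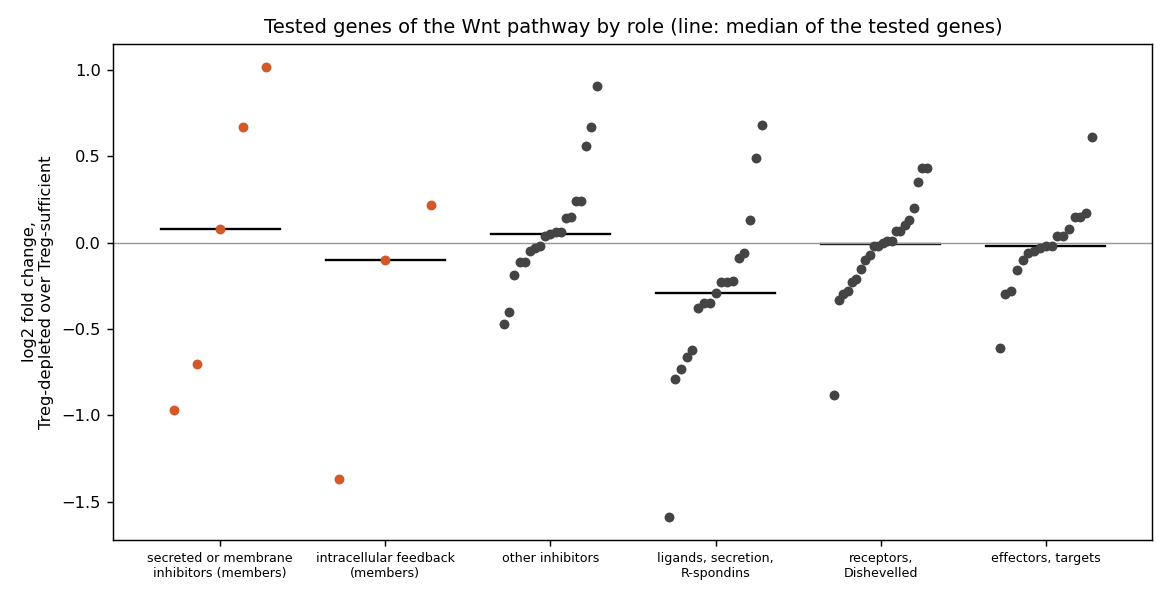
Log2 fold change between conditions of each tested gene of the Wnt lists, by role, with the median as a line. The members (orange) spread from -1.37 to 1.02, and the ligand list has the lowest median (-0.29).

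Markers of other cells were read beside the members, since Wnt inhibitors are also made by hair germ, matrix and dermal papilla cells. Of 8 hair germ and matrix markers 7 were lower in Treg-depleted libraries, with sums of 371 to 549 CPM against 421 to 738 CPM. The marker that was higher, Cdh3 (0.15, SE 0.12), was the most abundant in CPM (mean 281) and weighs most in these sums. The 7 lower ones had log2 fold changes from -3.04 (Krt35, SE 0.77) to -0.06 (Lef1, SE 0.26), and the median of the list was -1.01. Krt35, with 0 to 836 counts per library, was the 1 marker of this list to pass in experiment 1 (-5.88, SE 0.82, edgeR adjusted p = 0.0336). Of 10 fibroblast and dermal papilla markers 9 were tested and 6 were lower, with sums of 21.7 to 72.7 against 39.1 to 106 CPM. In experiment 1 the fibroblast sums were 21.7 and 24.2 CPM in Treg-depleted and 94.7 and 39.1 CPM in Treg-sufficient libraries. In experiment 2 they were 72.7 and 56.2 CPM against 75.1 and 106 CPM. Of the 9 tested fibroblast markers, 7 were lower in experiment 1 (median log2 fold change -0.90). In experiment 2, 3 were lower and 6 higher (median 0.48). No marker of either list was at 0 in all libraries, and Rspo3, a dermal papilla marker, had at most 27 counts. Melanocyte markers (5 of 5 lower) summed to 19.6 to 164 against 31.0 to 365 CPM. All 5 were higher in experiment 2 than in experiment 1 (median log2 fold change 2.52). So were 7 of 8 hair germ and matrix markers (median 1.25) and 7 of 9 tested fibroblast markers (median 0.40). Of the 8 bulge markers 4 were higher and 4 lower in experiment 2 (median -0.12). The 3 endothelial markers tested, all lower, belong to a list of 5 that summed to 1.62 to 3.44 against 2.75 to 8.58 CPM. Interfollicular epidermis markers (4 of 5 tested lower) summed to 188 to 709.3 against 168 to 1310 CPM, leukocyte markers (1 of 5 tested lower) to 5.16 to 11.6 against 5.13 to 7.51 CPM, and muscle markers (2 of 2 tested lower) to 1.55 to 19.3 against 6.18 to 24.6 CPM. The part of these cells in the values of Apcdd1, Sostdc1, Nkd2 and Wif1 was not tested.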

How the data were processed

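RNA of sorted Lgr5-traced cells was sequenced from 8 libraries with the TruSeq Stranded mRNA kit, per the labels' protocols. The authors deposited raw read counts per Ensembl gene, with no normalization and 5 tallies of reads given to no gene. Per the submitters' processing notes the build was GRCm38.p4 and the tools were TopHat2 (version 2), HTSeq, SAMtools and DESeq2. Neither strand setting nor annotation release is given in these sources. The tallies, kept out of library sizes and tests, were 2.72 to 3.01% (ambiguous), 6.63 to 10.8% (no feature) and 26.22 to 30.65% (several places) of all reads listed, with the other 2 at 0.

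Symbols, positions and merged exon lengths came from GENCODE M21 (GRCm38). In R 4.3.3, edgeR 4.0.16 tested the 16495 genes that passed filterByExpr (minimum count 10) with TMM factors, the quasi-likelihood test and Benjamini-Hochberg adjustment over all of them (threshold 0.05). Models were condition plus experiment (5 residual degrees of freedom) and 4 groups of 2 libraries (4), for effects within experiments and their interaction. CPM use TMM-scaled totals. Log2 CPM used a prior count of 2. The steps were tested on simulated data. Alternatives were DESeq2 1.42.0, other scalings, no filter, a replicate block, no experiment term and libraries left out. The members and lists were chosen with earlier results of these data known. All members were named; of the other Wnt lists, genes that passed, the 2 with the highest RPKM and the 2 with the smallest p between conditions; for Apcdd1, Wif1 and Axin2 the 5 most alike genes, of which 1 is not reported here.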

Additional observations from a re-analysis of the deposited data

Results flagged for a closer look

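The Apcdd1 level of Treg-sufficient replicate 2 (60.8 CPM) stood apart from the other 3 Treg-sufficient libraries (78.5 to 81.6 CPM): its gap to the nearest of them was 0.85 of the group's range, above the critical value of 0.829 for 4 libraries. This library also held Xist at 2670 CPM. Of 16 groups of 4 examined this was the only one above that value, and chance gives about 1 in 20.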

How the results depend on the processing

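Counts of called members (0 in each comparison) and their log2 fold changes kept within the spread between libraries under upper-quartile factors and the size factors of DESeq2. Without the filter on low counts only the 18467 of 46078 genes with no count in any library were left out. In that larger set edgeR called 5 members among 820 genes between conditions and 5 among 1152 in experiment 1. Experiment 2 then had 1 among 132 genes, the interaction 1 among 534 and the experiments 3 among 2443. In the same order DESeq2, given the 16495 filtered genes, called 2, 2, 0, 0 and 3 members, among 82, 721, 1, 182 and 2133 genes. The cause was not tested. Nothing is read from these counts of members, since the list was chosen with the difference between conditions known. With single libraries left out 0 to 2 members were called in experiment 1 and 0 to 1 between experiments; called genes ran from 16 to 443 (main value 100), 0 to 9 for the interaction and 0 to 679 between experiments (main value 268). Chosen after seeing the data, leaving out both libraries that held Xist gave 3 members and 487 genes in experiment 1, 87 genes for the interaction and 2 between experiments; leaving out both with the fewest genes gave 2 members and 531 genes in experiment 1 and 0 genes between experiments.

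Settings that leave 1 library in a group assume that it varies like the others. Some signs turned. The interaction ran, over single libraries left out, from -0.22 to 0.95 for Sfrp1, -1.13 to 0.35 for Nkd1 and -0.03 to 0.53 for Apcdd1; the Sfrp1 interaction was -0.16 without the libraries that held Xist and -0.43 without those with the fewest genes, where Nkd1 had 0.50. The difference between experiments ran from -0.53 to 0.08 for Nkd1 and -0.18 to 0.38 for Sostdc1.

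With the letter of the sample title as a replicate block 0 members were called between conditions, and called genes in experiment 1 fell from 100 to 2. Same-lettered libraries did not deviate together (correlation -0.095 in experiment 1 and -0.118 in experiment 2 after removing group means, 0.094 to 0.314 from condition means alone, and 4 of 8 libraries closest to their own letter), so the letters were not taken as pairs. Depth limits Nkd2 alone among the members, at 7 counts in 1 library.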
